A study of Homo sapiens with 6 samples.

Results

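Of the 58735 genes in the deposited table, 9 that control the p53 protein were taken by name and followed in RKO cells. They comprise the ubiquitin ligase genes MDM2, MDM4 and RCHY1, the phosphatase gene PPM1D, the deubiquitinase gene USP7 and the kinase genes ATM, ATR, CHEK1 and CHEK2. RKO is an established human colorectal carcinoma line. One group, Vector, held 3 libraries of negative control cells. The other group, LOC_OE, held 3 libraries of cells that overexpress LOC101927668, a long non-coding RNA. The overexpression line was made by lentiviral transduction of the full-length transcript and puromycin selection. The series calls the libraries of a group biological replicates. Whether a group is 1 selected line or several is not given in the sources used here, so a difference between lines and an effect of the RNA cannot be told apart. The comparison asks how these regulators changed when LOC101927668 was overexpressed.

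p53 is a transcription factor whose protein is made all the time and degraded quickly. MDM2 attaches ubiquitin to it, MDM4 binds it and blocks its activity together with MDM2, and RCHY1 is a further ligase. USP7 removes ubiquitin from both p53 and MDM2. After DNA damage ATM acts mainly at double-strand breaks and ATR at stalled replication forks, ATM activates CHEK2 and ATR activates CHEK1, and these kinases phosphorylate p53 or its ligases. PPM1D removes such phosphates. MDM2 and PPM1D are themselves induced by p53, which closes negative feedback loops.

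MDM2 has a start site inside the gene, 841 bases after the first annotated start, whose promoter is the one known to respond to p53. The RefSeq sequence before it, at chr12:68808767-68809001 of GRCh38.p14 on the plus strand, lies in an intron and is shown because MDM2 is one of the p53-induced members. Capitals mark the stretch closest to the p53 consensus, a pair of adjoining half-sites with each core C and G kept. It begins 94 bases before the start site and departs at 2 positions. The consensus reads the same on both strands. The promoter of PPM1D, another p53-induced member, is shown beside it, at chr17:60599943-60600182 on the plus strand. Its capitals mark TGACGTCA, the cyclic AMP response element, which also reads the same on both strands, and no stretch in that promoter came within 3 departures of the p53 consensus.

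MDM2 internal promoter: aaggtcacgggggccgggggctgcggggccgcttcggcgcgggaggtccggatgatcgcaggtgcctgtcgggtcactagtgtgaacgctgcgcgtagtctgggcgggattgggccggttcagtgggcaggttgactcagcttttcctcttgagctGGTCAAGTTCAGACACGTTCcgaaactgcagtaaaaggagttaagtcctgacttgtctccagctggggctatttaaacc
PPM1D promoter: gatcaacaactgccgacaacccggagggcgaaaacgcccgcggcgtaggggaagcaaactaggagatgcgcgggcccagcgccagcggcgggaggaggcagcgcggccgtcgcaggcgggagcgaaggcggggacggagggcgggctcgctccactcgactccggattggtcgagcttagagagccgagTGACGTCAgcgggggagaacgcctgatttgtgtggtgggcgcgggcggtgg

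All 9 members matched RefSeq promoters, 20 in all, of equal length. A stretch within 3 departures was found in 2 of them, both windows of the internal MDM2 start, and the next closest member had 5 departures. Among all 35116 promoters of this length, 1.12% held such a stretch, and 1.85% held TGACGTCA. Binding of any factor was not measured here.

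The libraries held between 15008842 and 18410231 reads on genes. The targeted gene, LOC101927668, had 1, 1 and 0 reads in the Vector libraries, whereas the LOC_OE libraries had 231, 270 and 276. LOC_OE replicate 1 stood apart, with Pearson correlations of log2(FPKM + 1) across genes of 0.967 and 0.962 with LOC_OE replicates 2 and 3, which had 0.982 with each other. Of 7 colon epithelium markers, KRT8, KRT18, EPCAM and CDX2 passed the filter, while CDH1 was at 0 in every library and KRT19 and VIL1 stayed below 0.5 FPKM. The summed FPKM of the 7 was between 39.1 and 41.3 in Vector and between 48.4 and 89.6 in LOC_OE. Of it KRT18 held 19.8, 18.4 and 18.1 in Vector and 67.5, 25.3 and 25.1 in LOC_OE. None of the markers that passed the filter had a limma adjusted p-value below 0.05. The summed FPKM of 5 fibroblast markers was between 0.157 and 0.203 in Vector and between 0.0318 and 0.125 in LOC_OE, with 2 of them at 0 throughout. The sum of 5 leukocyte markers was between 0.812 and 1.21 in Vector and between 0.187 and 0.713 in LOC_OE, nearly all of it CD68, with CD3E and LYZ at 0. The part of these markers in the results was not tested.

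Of the 9 regulators, 3 rose (RCHY1, USP7 and CHEK1) and 2 fell (MDM2 and PPM1D) in LOC_OE, where a gene passed if limma, fitted over 16061 genes, gave an adjusted p-value below 0.05. MDM4, ATM, ATR and CHEK2 did not pass. In such bulk samples fewer cells of a type and less RNA per cell cannot be told apart. By the same rule 10.7% of all genes rose, 9.74% fell and 20.4% passed in either direction. All 9 passed the filter on low FPKM. Their median log2 fold change was 0.062, beside 0.019 over all genes tested. On the log2(FPKM + 1) scale only RCHY1 also reached a fold change of at least 1.5, which 10.2% of all genes did. By limma voom on recovered reads PPM1D reached it too, at a log2 fold change of −0.587 (adjusted p = 0.00859). The FPKM of the groups did not overlap for 6 of the 9, the 5 above and ATR, while 45.3% of all genes did not overlap. The count depended on which library was left out. It was 6 without LOC_OE replicate 1 and 3 without LOC_OE replicate 2 or 3. It was 1 without Vector replicate 1 and 0 without Vector replicate 2 or 3 (limma), where 6 members had an unadjusted p-value under 0.05. It was 3 without a filter on low FPKM and 3 after rescaling to the same sum of FPKM, and 6 with limma voom on recovered reads. The rescaling to the same sum moved the median over all genes to −0.18.

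**Figure D1:**
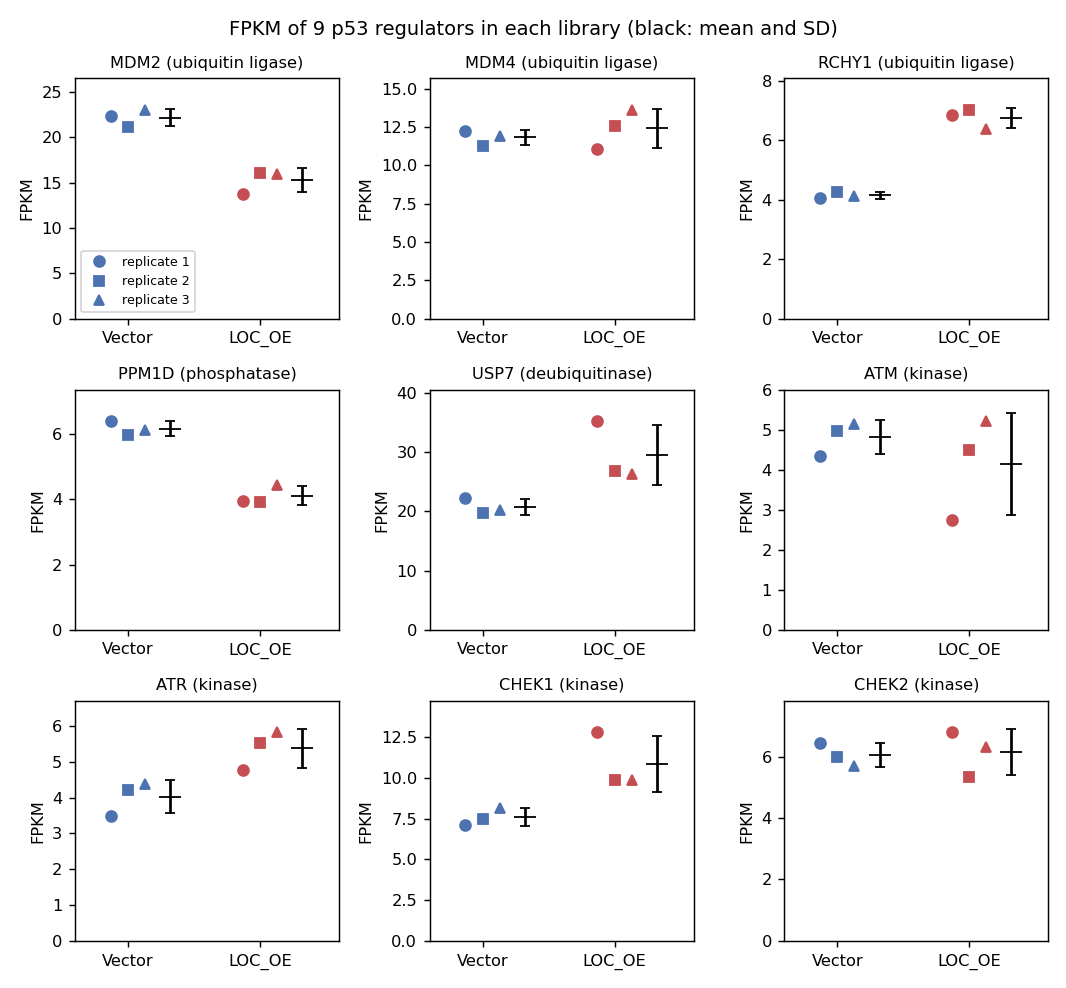
FPKM (vertical axis of each panel, from 0) of the 9 regulators in the 3 Vector (blue) and 3 LOC_OE (red) libraries, with replicates as circles, squares and triangles and the mean ± SD in black. MDM2 and PPM1D lie lower and RCHY1, USP7, CHEK1 and ATR higher in each LOC_OE library than in any Vector library, while the groups of MDM4, ATM and CHEK2 overlap.

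MDM2, the main ubiquitin ligase of p53 (ENSG00000135679, chromosome 12 from 68808176 to 68850686 on GRCh38, plus strand), had FPKM of 22.4, 21.1 and 23.0 in Vector and 13.7, 16.1 and 16.0 in LOC_OE. Each LOC_OE library was below every Vector library, and LOC_OE replicate 1 was the lowest. The mean fell from 22.2 ± 0.972 to 15.3 ± 1.35 (SD, n = 3 libraries each), which is 31.2% lower. The log2 fold change was −0.51 (standard error, SE, 0.092, limma adjusted p = 0.0155). MDM2 passed in all 10 alternatives that kept every library, with log2 fold changes between −0.76 and −0.43. Among these, median-of-ratios rescaling repeats the scaling that the FPKM already carry, so it could hardly differ for any member. MDM2 did not pass without Vector replicate 1, 2 or 3, where the adjusted p-values were between 0.0675 and 0.0744. AC025423.1, a transcript annotated as antisense inside the span of MDM2 on the same strand that shares none of its exon bases, averaged 2.43 FPKM in the Vector libraries and 0.804 in the LOC_OE libraries (limma adjusted p = 0.0587). Whether counting used strand is not given, and 785 of the 13284 exon bases of MDM2 also lie in the antisense gene AC025423.4, which was at 0 throughout.

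MDM4, the relative of MDM2 that inhibits p53 without being an effective ligase alone (ENSG00000198625, chromosome 1), had 12.3, 11.3 and 11.9 FPKM in Vector. In LOC_OE it had 11.1, 12.6 and 13.6 FPKM. The groups overlapped, and LOC_OE replicates 1 and 3 were the lowest and the highest of all 6. The log2 fold change was 0.062, with a 95% interval from −0.17 to 0.29 (limma adjusted p = 0.679). Its sign turned under the rescaling to the same sum of FPKM, at −0.18.

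The level of MDM2 over that of MDM4 in the same library, which does not depend on scaling between libraries, was 1.82, 1.87 and 1.93 in Vector and 1.24, 1.28 and 1.17 in LOC_OE. All LOC_OE ratios were below all Vector ratios. The log2 ratio was lower by 0.61 in LOC_OE (a difference of −0.61). A two-sided exact permutation test gave p = 0.1 (adjusted p = 0.1 over 3 ratios), the smallest that 3 libraries against 3 allow.

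RCHY1, a ligase also known as PIRH2 (ENSG00000163743, chromosome 4 from 75479037 to 75514764, minus strand), had 4.05, 4.27 and 4.11 FPKM in Vector and 6.86, 7.02 and 6.38 in LOC_OE. The groups lay far apart next to their own spread. The mean rose from 4.14 ± 0.111 to 6.75 ± 0.335 (SD, n = 3 libraries each), which is 63.0% higher. Its change on the log2 scale was 0.59 (SE 0.076, limma adjusted p = 0.00768). RCHY1 passed in all 10 alternatives that kept every library, with a log2 fold change down to 0.37 after rescaling to the same sum of FPKM, and in 4 of the 6 that left out 1. Without Vector replicate 2 or 3 the adjusted p-values were 0.0513 and 0.0503. THAP6 on the opposite strand shares 547 of its 6565 exon bases and had mean FPKM of 2.26 and 2.39.

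PPM1D, the phosphatase also called WIP1 (ENSG00000170836, chromosome 17 from 60600183 to 60666280, plus strand), had 6.40, 5.96 and 6.14 FPKM in Vector and 3.95, 3.93 and 4.45 in LOC_OE. The groups did not overlap and the 3 libraries within each lay close together. The mean fell from 6.17 ± 0.224 to 4.11 ± 0.296 (SD, n = 3 libraries each), a decrease of 33.3%. On the log2(FPKM + 1) scale the change was −0.49 (SE 0.082, limma adjusted p = 0.0131). On recovered reads, where low levels are not damped, it was −0.59 (adjusted p = 0.00859 from limma voom). Like MDM2, PPM1D passed in all 10 alternatives that kept every library and did not pass without Vector replicate 1, 2 or 3 (adjusted p between 0.0638 and 0.0675). PPM1D had the fewest reads of any member, 318 in its lowest library.

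USP7, also called HAUSP (ENSG00000187555, chromosome 16 from 8892094 to 8964514, minus strand), had 22.2, 19.8 and 20.2 FPKM in Vector and 35.3, 26.8 and 26.3 in LOC_OE. LOC_OE replicate 1 was well above the other 2 LOC_OE libraries, and all 3 were above Vector. The mean rose from 20.7 ± 1.28 to 29.5 ± 5.04 (SD, n = 3 libraries each), 42.2% higher. The change was 0.48 on the log2 scale (SE 0.13, limma adjusted p = 0.0462). USP7 passed in 7 of the 10 alternatives that kept every library, and had adjusted p-values of 0.0828 without a filter on low FPKM, 0.0816 after rescaling to the same sum of FPKM and 0.0531 without a variance trend. Its log2 fold change was 0.23 after that rescaling and 0.28 with quantile normalization. Of the 6 fits that left out 1 library, USP7 passed only without LOC_OE replicate 1, at a smaller log2 fold change of 0.34 (limma adjusted p = 0.0094). The other 5 fits had adjusted p-values between 0.0578 and 0.162.

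ATM (ENSG00000149311, chromosome 11 from 108222484 to 108369102, plus strand) had 4.35, 4.98 and 5.14 FPKM in Vector. The LOC_OE libraries had 2.75, 4.50 and 5.23 FPKM. Only LOC_OE replicate 1 lay outside the Vector range on the low side, and replicate 3 was the highest of all 6. The log2 fold change was −0.20, with a 95% interval from −0.67 to 0.26 (limma adjusted p = 0.484). Without LOC_OE replicate 1 it was 0.0091. NPAT on the opposite strand shares 143 of its 23972 exon bases and had mean FPKM of 5.45 and 4.96.

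ATR (ENSG00000175054, chromosome 3 from 142449235 to 142578826, minus strand) had 3.50, 4.22 and 4.37 FPKM in Vector and 4.76, 5.51 and 5.83 in LOC_OE. The groups did not overlap, but the spread within each was wide. The log2 fold change was 0.34, with a 95% interval from 0.078 to 0.61 before adjustment, and the adjusted p-value was 0.0724 (limma). ATR passed without LOC_OE replicate 1 (adjusted p = 0.0216) and on recovered reads (adjusted p = 0.0473 from limma voom). It had values of 0.049 with quantile normalization and 0.00478 with array weights, and 0.57 under the rescaling to the same sum of FPKM, where its log2 fold change was 0.13. The level of ATR over that of ATM was 0.804, 0.848 and 0.849 in Vector and 1.73, 1.23 and 1.12 in LOC_OE. By this FPKM, whose gene length is that of all annotated exons, ATM was the higher of the pair in each Vector library and ATR in each LOC_OE library (log2 difference 0.68, two-sided exact permutation p = 0.1, the smallest possible).

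CHEK1, the kinase activated by ATR (ENSG00000149554, chromosome 11 from 125625136 to 125676255, plus strand), had 7.08, 7.46 and 8.17 FPKM in Vector and 12.8, 9.87 and 9.88 in LOC_OE. LOC_OE replicate 1 was again the highest, and replicates 2 and 3 were alike. The mean rose from 7.57 ± 0.555 to 10.9 ± 1.69 (SD, n = 3 libraries each), 43.3% higher, with a log2 fold change of 0.46 (SE 0.12, limma adjusted p = 0.0416). It passed in 7 of the 10 alternatives that kept every library, and did not pass without a filter on low FPKM (0.0769), after rescaling to the same sum of FPKM (0.142) or with the replicate number as a block (0.0838). After that rescaling its log2 fold change was 0.22. Of the 6 fits that left out 1 library, CHEK1 passed only without LOC_OE replicate 1, with a log2 fold change of 0.35 (adjusted p = 0.014). The other 5 had adjusted p-values between 0.0597 and 0.143. STT3A, which shares 80 of the 6558 exon bases of CHEK1 on the same strand, rose from 18.0 to 29.4 FPKM on average (log2 fold change 0.68), and its part in the value of CHEK1 was not tested.

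CHEK2, the kinase activated by ATM (ENSG00000183765, chromosome 22 from 28687743 to 28742422, minus strand), had 6.45, 5.98 and 5.68 FPKM in Vector and 6.80, 5.33 and 6.32 in LOC_OE. The groups overlapped throughout. The log2 fold change was 0.018, with a 95% interval from −0.23 to 0.27 (limma adjusted p = 0.917), and its sign turned to −0.21 under the rescaling to the same sum of FPKM. CHEK2 has pseudogene copies in the genome that could share its reads, and the 4 copies named after it in the annotation were all listed at 0. HSCB on the opposite strand shares 301 of its 4493 exon bases and had mean FPKM of 4.72 and 6.88 (limma adjusted p = 0.0746). The level of CHEK1 over that of CHEK2 was 1.10, 1.25 and 1.44 in Vector and 1.88, 1.85 and 1.56 in LOC_OE. The groups did not overlap (log2 difference 0.49, two-sided exact permutation p = 0.1, the smallest possible).

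**Figure D2:**
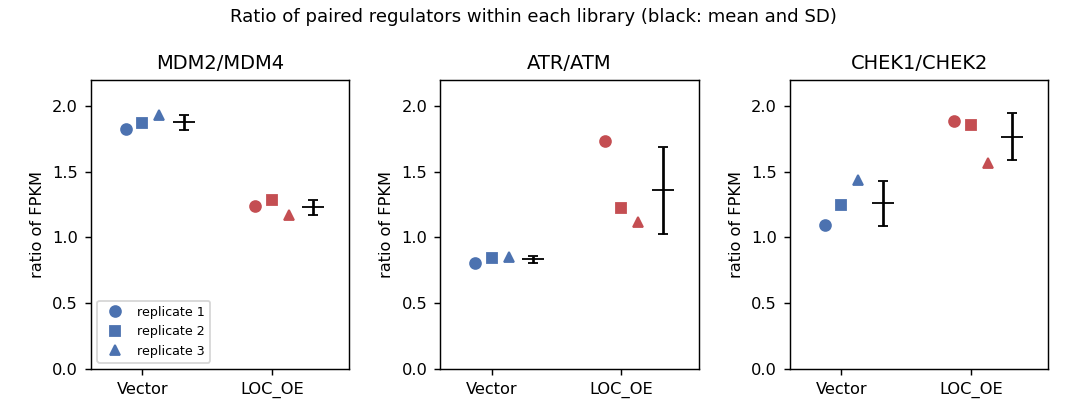
Ratio of FPKM within a library (vertical axis, from 0) for MDM2 over MDM4, ATR over ATM and CHEK1 over CHEK2, in Vector (blue) and LOC_OE (red), with replicates as circles, squares and triangles and the mean ± SD in black. The groups do not overlap in any of the 3 ratios, and the ATR/ATM ratio of LOC_OE replicate 1, 1.73, lies above the others.

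FPKM here is per base of merged exons of all annotated transcripts, which can be longer than the transcripts expressed, and the order of levels with another length was not tested. In Vector the order by this FPKM was MDM2, USP7, MDM4, CHEK1, PPM1D, CHEK2, ATM, RCHY1 and ATR, from 22.2 down to 4.03 FPKM. The ranges of MDM2 and USP7, of PPM1D and CHEK2, and of RCHY1 and ATR overlapped, and the other neighbours did not. In LOC_OE the order was USP7, MDM2, MDM4, CHEK1, RCHY1, CHEK2, ATR, ATM and PPM1D, from 29.5 down to 4.11 FPKM. There USP7 stood apart from MDM2, MDM2 from MDM4 and CHEK1 from RCHY1, MDM4 and CHEK1 overlapped, and from RCHY1 down each neighbour overlapped the next.

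**Figure D3:**
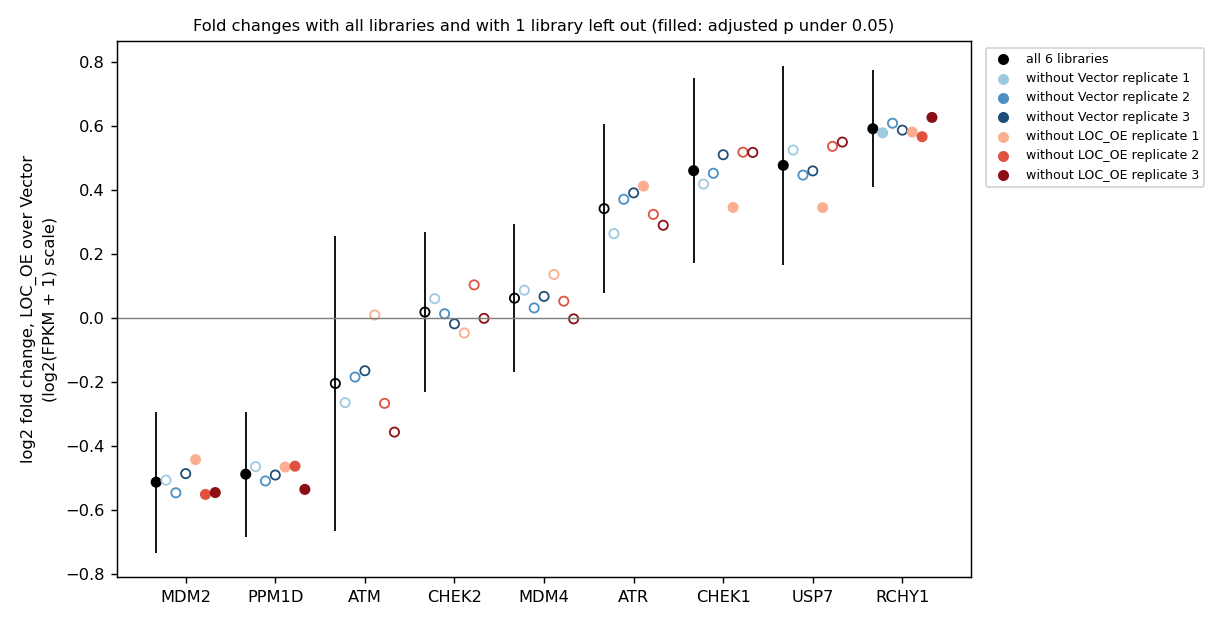
Log2 fold change of each regulator on the log2(FPKM + 1) scale (vertical axis) with all 6 libraries (black, with the 95% interval) and with 1 library left out (blue for Vector, red for LOC_OE), where filled points have an adjusted p-value under 0.05. The sign of MDM2, PPM1D, ATR, CHEK1, USP7 and RCHY1 was the same in the 7 fits. ATM changed sign without LOC_OE replicate 1 (0.0091) and MDM4 without LOC_OE replicate 3 (−0.0030). CHEK2 changed sign without Vector replicate 3 (−0.018), LOC_OE replicate 1 (−0.047) or LOC_OE replicate 3 (−0.0013).

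The members were set beside the genes around them on the chromosome, with no test. MDM2 had 52 other tested genes within 5 Mb, with a median log2 fold change of 0.18, and 7.69% of them lay below MDM2. PPM1D had 93 such genes with a median of 0.070, and 9.68% lay below it. For the members that rose, 92.3% of 39 neighbours lay below RCHY1, 95.2% of 63 below USP7 and 91.5% of 47 below CHEK1. Taken relative to the neighbour median, the log2 fold changes were −0.70 for MDM2, −0.56 for PPM1D, 0.46 for RCHY1, 0.59 for USP7 and 0.37 for CHEK1.

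Over the 6 libraries, PPM1D followed MDM2 (Pearson r = 0.962 of log2(FPKM + 1)) and ran opposite to RCHY1 (r = −0.996). USP7 and CHEK1 ran together (r = 0.939), and ATM and ATR had r = 0.0662. These values describe 6 libraries that fall into 2 groups and share their scaling. In a comparison with 7848 genes averaging 5 FPKM or more, the profiles most like MDM2 were those of PRRC1 and ZNF175 (r of 0.998 and 0.997), and those most like PPM1D were YIPF5 and PFN2 (0.998 and 0.996). DNAJC19 and TMA16 were closest to RCHY1 (0.999 and 0.998), ZDHHC7 and GTF3A to USP7 (both 0.999), and BCLAF1 and GPR162 to CHEK1 (both 0.999). For the members that did not pass, the closest were IL13RA1 and TGFBR2 for MDM4, KMT2C and ZNF609 for ATM and PUS7L and FAR1 for ATR, with r between 0.988 and 0.997. For CHEK2 they were ZKSCAN5 and CNPY3, with r of 0.948 and 0.947.

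The listed genes that p53 induces were mostly lower, as MDM2 and PPM1D were. Whether p53 induces other members was not examined here, and RCHY1 rose. Of 27 targets listed, 24 were tested, 18 fell and 0 rose (limma), beside 9.74% and 10.7% of all genes. No rise passed at an unadjusted p-value under 0.05 or by limma voom, but 2 rose with array weights and 2 without LOC_OE replicate 1. Their median log2 fold change was −0.77, beside 0.019 over all genes. The largest falls were those of TP53INP1, a stress-induced autophagy and death factor (20.2 ± 0.424 to 3.74 ± 1.81 FPKM), the antiproliferative gene BTG2 (31.6 ± 2.40 to 8.52 ± 1.18) and the death gene BBC3 (21.1 ± 1.22 to 8.15 ± 3.05; SD, n = 3 libraries each). CDKN1A, the cell cycle inhibitor p21, had a log2 fold change of −0.85 (limma adjusted p = 0.00698). The falls of MDM2 and PPM1D were smaller than this median. Taken library by library against the Vector mean, the median of the targets was −0.82, −0.75 and −0.70 for LOC_OE replicates 1, 2 and 3. The count was 12, 10 and 11 without Vector replicates 1, 2 and 3. Of the 22 targets with a RefSeq promoter, 6 had a stretch within 3 departures of the consensus, and these were AEN, DDB2, FAS, FDXR, GDF15 and SESN1. Counted by promoter this was 6 of 30, beside 1.12% of all promoters. GDF15 was not among the targets that fell, with a log2 fold change of 0.062 (limma adjusted p = 0.946). Its LOC_OE libraries were split, at 8.74, 40.5 and 34.9 FPKM for replicates 1, 2 and 3. In Vector it had 27.1, 20.8 and 19.8 FPKM.

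Genes listed as inhibitors of MDM2, which code for ribosomal and nucleolar proteins, moved in both directions. Of 9 listed, 8 were tested, 5 rose and 2 fell, beside 10.7% and 9.74% of all genes. With quantile normalization 2 rose and 3 fell, beside 1676 and 1802 of all 16061 genes. NPM1, a nucleolar chaperone, rose from a mean of 242 to 445 FPKM, and RPL23 and RPS7 also rose, by 0.80 and 0.58 on the log2 scale. RPL26 fell from 25.5 ± 4.96 to 13.3 ± 3.42 FPKM (SD, n = 3 libraries each). NOP53, listed as a nucleolar protein, had a log2 fold change of −0.48, and whether it restrains MDM2 was not tested. RPL5 and RPL11, which bind MDM2 together with 5S RNA, had log2 fold changes of 0.44 (adjusted p = 0.0253) and 0.027 (adjusted p = 0.852, limma). Ribosomal protein genes have many processed copies, so their reads are uncertain. CDKN2A, the gene of ARF, was below the filter, with at most 0.298 FPKM in any library. The count was 7 with all libraries and 7 without LOC_OE replicate 1. It was 1 without Vector replicate 2 or 3, 3 without Vector replicate 1, 4 without LOC_OE replicate 2 and 3 without LOC_OE replicate 3.

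Other enzymes that modify p53 passed in 9 of 32 cases, 8 higher and 1 lower, where 10.7% of all genes were higher and 9.74% lower. Their median log2 fold change was 0.11. The direction depended on the scaling, with 5 higher and 3 lower under quantile normalization and 2 higher and 6 lower after rescaling to the same sum of FPKM. All 3 methyltransferase genes rose, SETD7 from 8.29 ± 0.164 to 14.2 ± 1.59 FPKM, KMT5A from 12.2 ± 0.301 to 19.7 ± 1.74 and SMYD2 from 5.11 ± 0.417 to 7.75 ± 1.54 (SD, n = 3 libraries each). The ligase gene SYVN1 fell, with a log2 fold change of −0.39 (limma adjusted p = 0.0199). USP10, a deubiquitinase of p53 like USP7, had a log2 fold change of 0.47 (limma adjusted p = 0.0195). The ligase COP1 had 0.071 (adjusted p = 0.535). The count was 16 without LOC_OE replicate 1, 2, 0 and 0 without Vector replicates 1, 2 and 3, and 3 and 4 without LOC_OE replicates 2 and 3.

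Of 24 partners and substrates of the checkpoint kinases, 4 rose and 1 fell, a share close to the 20.4% of all genes that passed, with a median log2 fold change of 0.25. TIMELESS and TIPIN, which form a complex at replication forks that aids ATR signalling to CHEK1, rose by 1.02 and 0.95 on the log2 scale (limma adjusted p = 0.0168 and 0.0151). TOPBP1, an activator of ATR, changed on the log2 scale by 0.52 (limma adjusted p = 0.0247). ETAA1, also listed as an ATR partner, had a log2 fold change of 0.026 (limma adjusted p = 0.888). NBN, the ATM partner of the MRE11 complex, had 0.78 (adjusted p = 0.00872, limma). MRE11 and RAD50 had log2 fold changes of 0.14 and −0.18 (adjusted p = 0.503 and 0.338). CDC25C, a phosphatase that CHEK1 and CHEK2 inhibit, fell from 6.16 ± 0.527 to 3.15 ± 0.53 FPKM (SD, n = 3 libraries each). The count was 13 without LOC_OE replicate 1 and between 0 and 5 without any other library. It was 0 without Vector replicate 2 and 1 without Vector replicate 1 or 3.

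CHEK1 and USP7 were highest in LOC_OE replicate 1, and so were the listed genes of E2F and DNA replication other than CDT1, which was highest in LOC_OE replicate 2. All 19 of these genes had a log2 fold change above 0, as did 8357 of all 16061 genes, with a median of 0.61. Of the 19, 6 rose past the test, beside 10.7% of all genes. Against the Vector mean their median was 1.00, 0.27 and 0.30 in the LOC_OE libraries 1, 2 and 3. The largest passing changes were those of CDC6, MCM4 and CCNE2, at 0.98, 0.86 and 0.73 on the log2 scale. The count was 14 without LOC_OE replicate 1, 1, 0 and 0 without Vector replicates 1, 2 and 3, and 4 without LOC_OE replicate 2 or 3. CHEK1 and USP7 were higher in each LOC_OE library than in any Vector library, as were 15 of the 19 and 3919 of all 16061 genes. The part of replication genes in the values of CHEK1 and USP7 was not tested.

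**Figure D4:**
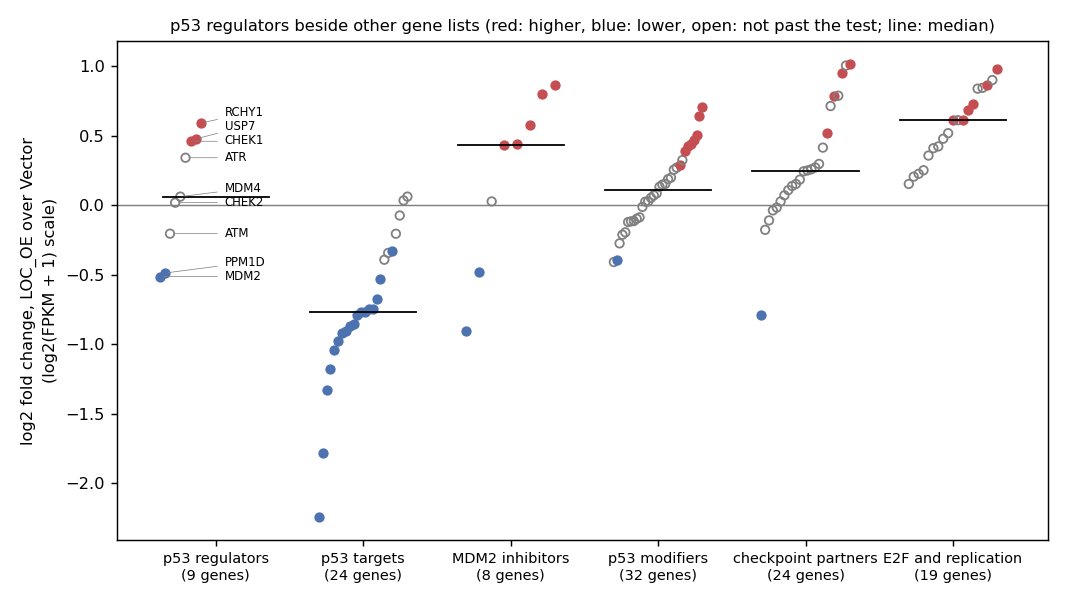
Log2 fold change on the log2(FPKM + 1) scale (vertical axis) of each tested gene in the p53 regulators and 5 other lists, with genes past the test in red (higher) or blue (lower), others open and the median as a line. MDM2 and PPM1D lie at −0.51 and −0.49, above the p53 target median of −0.77, and RCHY1, USP7 and CHEK1 lie between 0.46 and 0.59.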

How the data were processed

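RNA from 6 libraries, 3 Vector and 3 LOC_OE, was prepared with a NEBNext Ultra kit and sequenced as paired ends on an Illumina NovaSeq. The authors deposited 1 table of FPKM, fragments per gene divided by length and library size. The submitters' processing notes list HISAT2 2.0.4, StringTie 1.3.0 and hg38, while the counting tool and annotation are not given in the sources used here. All 58735 identifiers matched GENCODE 29 on GRCh38. FPKM times merged exon length gave whole reads (within 0.01) for 100% of the values checked, and the library sizes used already carried median-of-ratios factors, so no further scaling was applied. The reads carry no molecular identifiers.

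LOC_OE was compared with Vector by limma 3.58.1 in R 4.3.3, which modelled log2(FPKM + 1) and let the variance follow the mean level. The 16061 genes that reached 0.5 FPKM in 3 or more libraries were tested, with Benjamini-Hochberg adjustment over all of them. This scale understates changes of low genes. Ratios were tested by exact permutation over libraries in Python 3.11.15, and figures drawn with matplotlib 3.10.9. The limma fit was tested on simulated data in which each gene had the same spread in every library. That test does not cover a library that stands apart, as LOC_OE replicate 1 did. Alternatives were another pseudocount, 2 other filters, 3 scalings, no variance trend, array weights and a replicate block. Each library left out, 2 other thresholds and limma voom on recovered reads were also tried. Of the scalings, median-of-ratios rescaling repeats the factors already carried, so it could hardly differ from the main fit. The genes named are the 9 members, the 3 largest passing changes per direction of each other list with CDKN1A, and the 2 closest profiles per member. Others (AC025423.1, AC025423.4, THAP6, NPAT, STT3A, HSCB, RPL5, RPL11, CDKN2A, USP10, COP1, TOPBP1, ETAA1, MRE11, RAD50, CDT1 and the targets with a promoter match) were added with their values already in view, as were the promoter searches. The members and lists were chosen with earlier results of these data known. The gene of p53 itself is not reported here.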

Additional observations from a re-analysis of the deposited data

How the results depend on the processing

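Of the 9 regulators, 5 passed with all libraries, 3 without a filter on low FPKM, 3 after rescaling to the same sum of FPKM, and 1 when a fold change of at least 1.5 was also required. After that rescaling the median over all genes was −0.18, with 716 genes higher and 3138 lower in place of 1712 and 1565. Without the filter, 5 p53 modifiers, 4 MDM2 inhibitors and 3 E2F and replication genes passed. With array weights, 20 p53 modifiers, 16 checkpoint partners and 13 E2F and replication genes passed. These weights were 0.104, 5.02 and 0.708 for LOC_OE replicates 1, 2 and 3, so that fit leaned on LOC_OE replicate 2. The Vector weights were between 1.04 and 1.93. At a fold change of at least 1.5, 2 modifiers and 3 MDM2 inhibitors passed, and at an unadjusted p-value under 0.05, 11 checkpoint partners and 11 E2F and replication genes passed. Leaving out 1 library gave between 0 and 6 regulators, 0 and 16 modifiers, 1 and 7 MDM2 inhibitors, 0 and 13 checkpoint partners, 10 and 21 p53 targets, and 0 and 14 E2F and replication genes. These fits have fewer libraries, and the cause of the other shifts was not tested. Over all genes, 1712 rose and 1565 fell, against 4362 and 3724 with array weights, 1125 and 940 with the replicate block, 1052 and 1229 without the filter, and 144 and 227 without Vector replicate 2.

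MDM4, CHEK2 and ATM, which did not pass, changed sign in some fits. MDM4 had log2 fold changes of −0.18 after the rescaling to the same sum, −0.022 with quantile normalization and −0.0030 without LOC_OE replicate 3. CHEK2 had −0.21, −0.010 and −0.11 under the rescaling, quantile normalization and array weights. It had −0.018 without Vector replicate 3, −0.047 without LOC_OE replicate 1 and −0.0013 without LOC_OE replicate 3. ATM had 0.0091 without LOC_OE replicate 1. Leaving out 1 library gave up to 0.14 for MDM4 and 0.10 for CHEK2 and down to −0.36 for ATM, and none of the 3 passed in any fit.

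Whether the replicate numbers shared by the groups pair the libraries was not settled. Deviations from the group means correlated at 0.11, −0.034 and 0.12 for numbers 1, 2 and 3. Numbers 1 and 3 correlated best with themselves and number 2 did not, and 3 libraries per group are too few to decide. With the replicate number as a block, 4 of the 9 regulators passed, CHEK1 being lost, and 3 MDM2 inhibitors passed in place of 7.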
